A study of Mus musculus with 8 samples.

Results

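The genes described here act in strand exchange, the step of meiotic recombination in which a broken DNA end invades the homologous chromosome. They were taken by symbol from the deposited expression table and comprise 9 of its 23983 genes. Of these, 5 are meiosis-specific factors (Dmc1, Psmc3ip, Mnd1, Meiob and Spata22) and 4 are general recombination factors that also act in somatic cells (Brca2, Rad51c, Xrcc3 and Rad54l). All 9 averaged at least 1 FPKM (fragments normalised to transcript length and library size) over the 4 libraries. The RNA came from testes of C57BL/6J mice at d12, d16 and d24 post partum (p.p.) and from adult testis, and was sequenced as strand-specific read pairs. The stages follow the first wave of spermatogenesis, which the study used to find loci that become active as haploid germ cells form. Each stage was represented by 1 library made from a piece of whole testis, and the labels do not state how many animals it came from. No spread between animals can therefore be given, and no stage difference below has a replicate check or a test.

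The depth behind each value was read from the values themselves, since FPKM times transcript length moves in steps of 1 fragment. In this way the fragments on genes were estimated at 9328818 in the d12 library, 9929354 in the d16, 24973741 in the d24 and 12734260 in the adult library. Values in parentheses after an FPKM value or a ratio are 95% intervals from the fragments recovered for each gene. They cover counting error only.

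During meiotic prophase, programmed DNA breaks are resected to single-stranded tails, which are first covered by replication protein A and then by filaments of DMC1. BRCA2 loads DMC1, the HOP2-MND1 complex stimulates its filaments, and RAD54 proteins remodel the joint that forms. In the testis this takes place in leptotene to pachytene spermatocytes, which appear before any haploid cell in the first wave.

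The labelled stages were set against marker genes of testis cell types. Summed over 6 early meiotic genes (Stra8, Prdm9, Ccnb3, Sycp1, Sycp3 and Rad21l), the level was 845 FPKM at d12, 1419.9 at d16, then 853 at d24 and 834 in adult testis, with Sycp3 the most abundant in each library. This sum is carried by Sycp1 and Sycp3. The other 4 genes were highest at d12 and fell at least 2-fold from d12 to adult testis. The 6 markers of pachytene spermatocytes summed to 61.9, 984, 4222 and 4902 FPKM in the same order, led by Hspa2 at d12 and by Ldhc from d16 on. Spermatocyte genes were thus already present at d12, and those of pachytene cells were far higher at the later stages. Markers of round spermatids (6 genes) summed to 2.79, 13.9, 475 and 1424 FPKM. Spaca3 and Sun5 were listed at 0 at d12, and Acrv1, Spaca3 and Sun5 at d16. Markers of elongating spermatids (6 genes, Prm2 the most abundant) summed to 13.2, 4.45, 2363 and 26392 FPKM, so the d24 and adult libraries held abundant haploid RNA and the earlier ones little. In whole tissue, fewer cells of a type and less RNA per cell cannot be told apart, and this holds for every level below.

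Dmc1 encodes the meiosis-specific recombinase that forms filaments on resected ends. It had 45.7 FPKM at d12 (43.1 to 48.4), 33.3 at d16 (31.1 to 35.6), 17.5 at d24 (16.3 to 18.7) and 12.4 in adult testis (10.8 to 14.1). Each stage lay below the one before it by more than counting error. The adult value was 0.270 times the d12 value (0.234 to 0.313), and Dmc1 was the only member of the meiosis-specific group with its highest level at d12. At d12 it was also the most abundant of the 9 members, 1.27 times Brca2 (1.19 to 1.36). In adult testis it ranked 5 of 9, not apart from Spata22 above it or from Rad51c below it by counting error.

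Psmc3ip and Mnd1 encode HOP2 and MND1, which form a heterodimer that stimulates strand invasion by DMC1. Psmc3ip had 30.0 FPKM at d12 (27 to 33.2), 114 at d16 (108 to 121), 239.9 at d24 (233 to 247) and 341 in adult testis (329 to 354). It was thus lowest at d12 and highest in adult testis, where it was 11.4 times its d12 level (10.2 to 12.7). Mnd1 had 7.67 FPKM at d12 (6.12 to 9.51), 17.4 at d16 (15.0 to 20.04), 8.12 at d24 (6.90 to 9.51) and 6.93 in adult testis (5.21 to 9.05). Its d16 level was 2.27 times that at d12 (1.74 to 2.96), and its d24 level was 0.467 times that at d16 (0.376 to 0.581). In the deposited values the d12, d24 and adult levels of Mnd1 did not differ beyond counting error. With libraries brought to the same FPKM sum (equal sums), its adult level was 0.388 times that at d12. With division by the upper quartile it was 0.565 times. The counting interval of the deposited ratio was 0.629 to 1.29. Intervals were not recalculated under other scalings, so rescaled ratios are given here and below without one. The transcripts of these partners therefore separated with age. Psmc3ip to Mnd1 was 3.91 at d12 (3.07 to 5.01), 6.57 at d16 (5.65 to 7.70), 29.5 at d24 (25.2 to 34.8) and 49.2 in adult testis (37.6 to 65.6). The intervals of these 4 ratios did not overlap. Ratios of this kind are formed inside each library and do not depend on the scaling between libraries.

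Meiob and Spata22 encode partners that bind single-stranded DNA together with replication protein A and keep DMC1 on it. Meiob had 15.5 FPKM at d12 (13.9 to 17.2), 30.8 at d16 (28.5 to 33.3), 22.6 at d24 (21.1 to 24.1) and 18.4 in adult testis (16.4 to 20.7). Spata22 had 9.03 FPKM at d12 (7.61 to 10.6), 21.7 at d16 (19.4 to 24.1), 17.1 at d24 (15.7 to 18.8) and 14.4 in adult testis (12.3 to 16.8). Both were lowest at d12 and highest at d16 in the deposited values. At equal sums both were still highest at d16 but lowest in adult testis, at 0.513 times the d12 level for Meiob and 0.688 times for Spata22. The d16 level was 1.99 times the d12 level for Meiob (1.74 to 2.28), just short of 2-fold, and 2.40 times for Spata22 (1.97 to 2.93). In the deposited values the d24 and adult levels of Spata22 did not differ beyond counting error (ratio 0.701 to 1.01). The adult level was 0.604 times that at d24 at equal sums and 0.782 times by upper quartile, without a recalculated interval. The ratio of Meiob to Spata22 moved less than that of Psmc3ip to Mnd1. It was 1.71 at d12 (1.41 to 2.1), 1.42 at d16 (1.247 to 1.63), 1.32 at d24 (1.17 to 1.47) and 1.28 in adult testis (1.05 to 1.56). It fell at each step, and each interval overlapped the next.

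**Figure D1:**
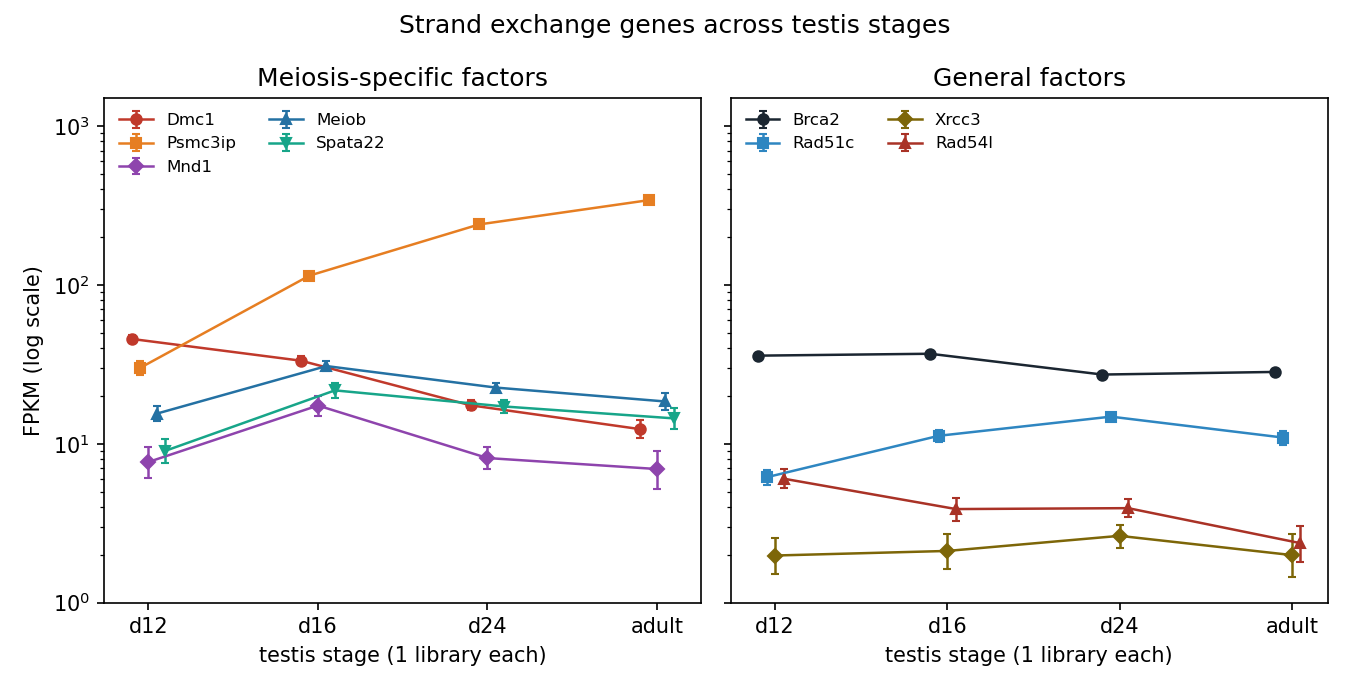
FPKM values (log axis) of the 5 meiosis-specific factors on the left and the 4 general factors on the right by stage of the testis, with 1 library per stage and bars for the 95% counting interval. Psmc3ip climbs from 30.0 to 341 FPKM while Dmc1 drops from 45.7 to 12.4, Mnd1, Meiob and Spata22 are highest at d16, and Brca2 lies between 27.2 and 36.8 in the deposited values.

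Among the general factors, Brca2, which loads DMC1 onto resected DNA, was the most abundant at every stage. It had 35.8 FPKM at d12 (34.8 to 36.8), 36.8 at d16 (35.8 to 37.9), 27.2 at d24 (26.6 to 27.9) and 28.3 in adult testis (27.3 to 29.4). In the deposited values d12 and d16 were not apart by counting error, nor were d24 and adult testis. The earlier pair lay above the later pair. At equal sums d16 was 0.947 times d12 and adult testis 0.745 times d24. By upper quartile these were 0.930 and 0.965 times. Intervals were not recalculated under these scalings, so no statement on counting error is made for them. The adult level was 0.790 times the d12 level as deposited and 0.340 times at equal sums.

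Rad51c and Xrcc3 encode the partners of the CX3 complex. Rad51c had 6.15 FPKM at d12 (5.48 to 6.87), 11.2 at d16 (10.3 to 12.2), 14.8 at d24 (14.0 to 15.6) and 10.9 in adult testis (9.87 to 12.1). Its lowest deposited level was at d12 and its highest at d24, 1.32 times the d16 level (1.19 to 1.46). This ratio was 0.860 at equal sums and 0.983 by upper quartile. At equal sums Rad51c was highest at d16 and lowest in adult testis. Xrcc3 had the lowest value of the members in each library, with 1.98 FPKM at d12 (1.51 to 2.54), 2.11 at d16 (1.63 to 2.69), 2.63 at d24 (2.21 to 3.10) and 1.99 in adult testis (1.46 to 2.69). In adult testis it was not apart from Rad54l by counting error. In the deposited values no neighbouring stages in the order of its levels differed beyond counting error, with 44 to 142 fragments behind each value. The adult level was 0.433 times that at d12 at equal sums and 0.630 times by upper quartile. The counting interval of the deposited ratio was 0.672 to 1.52, and none was recalculated for these scalings. Rad51c to Xrcc3 was 3.11 at d12 (2.35 to 4.15), 5.31 at d16 (4.10 to 6.98), 5.63 at d24 (4.73 to 6.75) and 5.49 in adult testis (3.98 to 7.62). The intervals at d16, d24 and in adult testis overlapped widely, and the d12 ratio was the lowest, with an interval that reached those of d16 and adult testis.

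Rad54l encodes the RAD54 translocase, which drives strand invasion. It had 6.02 FPKM at d12 (5.25 to 6.89), 3.88 at d16 (3.26 to 4.58), 3.93 at d24 (3.46 to 4.46) and 2.37 in adult testis (1.80 to 3.04). The adult value was 0.393 times the d12 value (0.289 to 0.524). In the deposited values d16 and d24 did not differ beyond counting error (ratio 0.821 to 1.26). The d24 level was 0.660 times that at d16 at equal sums and 0.755 times by upper quartile, without a recalculated interval. Of the 9 members, only Dmc1 and Rad54l had their highest level at d12 in the deposited values, and with libraries brought to the same FPKM sum Brca2 and Xrcc3 did so too. Xrcc3 then had 6.98 FPKM at d12 and 6.86 at d16, from 61 and 65 fragments, so its order of d12 and d16 is uncertain.

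**Figure D2:**
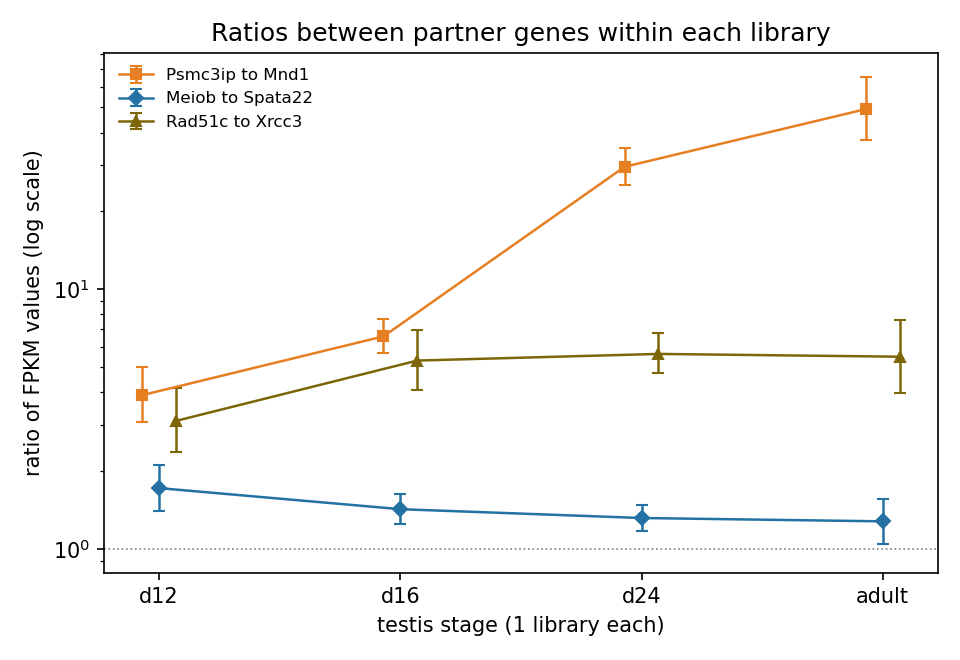
Ratio of the FPKM values of partner genes inside each library (log axis) for the 4 stages, with bars for the 95% counting interval and a dotted line at 1. Psmc3ip to Mnd1 climbs from 3.91 to 49.2, while Meiob to Spata22 lies between 1.71 and 1.28 and Rad51c to Xrcc3 between 3.11 and 5.63.

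The groups were then compared over each step, with changes on the scale of log2(FPKM + 0.1), which understates the change of low genes, and a change of at least 2-fold counted. From d12 to d16, 3 of 9 members rose (Psmc3ip, Mnd1 and Spata22), where 12.6% of the 13901 genes that averaged at least 1 FPKM did, and 0 fell, where 3.67% of all genes did. All 3 were meiosis-specific, and none of the 4 general factors passed 2-fold. From d16 to d24, 1 member rose (Psmc3ip) beside 27.5% of all genes, and 1 fell (Mnd1) beside 8.45%. From d24 to adult testis, 0 members rose and 0 fell, beside 11.4% and 2.2% of all genes. From d12 to adult testis, 1 rose (Psmc3ip) beside 35.7% of all genes, and 2 fell (Dmc1 and Rad54l) beside 23.1%.

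The median log2 change of the meiosis-specific factors was 1.17 from d12 to d16, -0.45 from d16 to d24, -0.25 from d24 to adult testis and 0.25 from d12 to adult testis. For the general factors it was 0.07, 0.16, -0.41 and -0.17 over the same comparisons, and for all 13901 genes it was 0.00, 0.13, -0.02 and 0.20. The difference between both groups, meiosis-specific minus general, was 1.104 from d12 to d16, -0.61 from d16 to d24, 0.16 from d24 to adult testis and 0.42 from d12 to adult testis. The meiosis-specific group therefore moved up against the general group in the first step and down against it in the second. With longer gene lists the differences were 0.97, -0.27, -0.08 and 0.71 over the same comparisons. The Dmc1 change of -0.45 from d12 to d16 and the Psmc3ip change of 1.07 from d16 to d24 ran against the median of their own group. Among the general factors, so did the Rad54l change of -0.62 from d12 to d16 and the Brca2 change of -0.43 from d16 to d24.

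The directions above depend on how libraries are scaled to each other. The deposited values sum to 283580 FPKM at d12, 307964 at d16, then 472726 at d24 and 659202 in adult testis. With each library brought to the same FPKM sum, the median of all genes became -0.11, -0.48, -0.49 and -0.996 for the 4 comparisons, and with division by the upper quartile -0.14, -0.29, -0.12 and -0.46. Of all genes past 2-fold, 77.5% were higher from d12 to d16 in the deposited values, against 66.9% at equal sums and 65.9% by upper quartile. From d16 to d24 the shares were 76.5%, 39.0% and 48.9%, from d24 to adult testis 83.8%, 39.9% and 78.3%, and from d12 to adult testis 60.7%, 31.7% and 41.9%. Relative to the median of all genes, the meiosis-specific median was 1.17 above it from d12 to d16, then -0.58, -0.23 and 0.05 for the other comparisons. The general median relative to all genes was 0.07, 0.03, -0.39 and -0.37.

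Under both other scalings the log2 change turned negative for Brca2 and Xrcc3 from d12 to d16, for Rad51c, Xrcc3 and Rad54l from d16 to d24, for Brca2 from d24 to adult testis, and for Meiob and Xrcc3 from d12 to adult testis. At equal sums it did so for Spata22 and Rad51c from d12 to adult testis as well. Psmc3ip from d12 to adult testis remained above its start at equal sums, at 4.89 times, and Dmc1 was 0.116 times its d12 level. The stage of the highest level was less sensitive for the meiosis-specific group, with 1 gene at d12, 3 at d16 and 1 in adult testis in both the deposited values and those at equal sums. The gene highest in adult testis was Psmc3ip, which at equal sums had 517 FPKM there and 508 at d24, nearly the same level. For the general group the deposited values placed 1 gene at d12, 1 at d16 and 2 at d24, and equal sums placed 3 at d12 and 1 at d16. Of those at d12, Xrcc3 was nearly level between d12 and d16. Of all genes, 35.3%, 10.4%, 18.0% and 36.3% were highest at d12, d16, d24 and in adult testis as deposited, and 48.9%, 16.3%, 18.8% and 15.98% at equal sums.

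As a summed level, the meiosis-specific factors had 108 FPKM at d12, 217 at d16, then 305 at d24 and 393 in adult testis. This climb was carried by Psmc3ip, which made up 86.7% of the adult sum, and it depends on the scaling. With each library brought to a sum of 1000000 FPKM the group had 380, 706, 646 and 596 FPKM, highest at d16. With division by the upper quartile it had 140, 255, 267 and 319, still highest in adult testis. Without Psmc3ip the deposited sums were 77.9, 103, 65.3 and 52.2 FPKM, so the remaining 4 genes together were highest at d16, as they also were at equal sums. The general factors summed to 49.99 FPKM at d12, 54.0 at d16, then 48.6 at d24 and 43.6 in adult testis, with Brca2 contributing 56.0% at d24 and 71.7% at d12. At equal sums they had 176, 175, 103 and 66.1 FPKM.

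The rest of the pathway was read from a list of 27 further genes, all of which averaged at least 1 FPKM. From d12 to d16, 3 of 27 rose (Hsf2bp, Rad54b and Fignl1) and 0 fell, beside 12.6% and 3.67% of all genes. From d16 to d24, 4 rose (Brme1, Rpa1, Zswim7 and Hrob) and 1 fell (Rad51ap2), beside 27.5% and 8.45%. From d24 to adult testis, 0 passed 2-fold in either direction, beside 11.4% and 2.2%. From d12 to adult testis, 5 rose (Hsf2bp, Brme1, Rpa1, Zswim7 and Fignl1) and 4 fell (Rpa2, Rpa3, Firrm and Mcm8), beside 35.7% and 23.1%. At equal sums these counts became 1 higher and 1 lower, 2 and 10, 0 and 3, and 1 and 13, beside 11.7% and 5.78% of all genes, 19.4% and 30.2%, 6.63% and 10.0%, and 23.2% and 49.9%. The median log2 change of the list was 0.36, -0.17, -0.16 and 0.19 over the 4 comparisons, or 0.36, -0.30, -0.14 and -0.01 relative to all genes.

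HSF2BP and BRME1 bind each other and BRCA2 in meiotic cells. Hsf2bp had 12.2 FPKM at d12, 25 at d16, then 34.7 at d24 and 34.9 in adult testis. Brme1 had 7.39, 11.1, 36.8 and 46.1 FPKM, and its adult level was 6.24 times that at d12 (5.40 to 7.24), or 2.69 times at equal sums. Both were higher in adult testis than at d12 while Brca2 itself was not. Rad54b, a relative of Rad54l, had 12.6, 26.6, 17.4 and 16.1 FPKM and was highest at d16, unlike Rad54l. No interval is given for it because its annotated transcripts differ widely in length.

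Replication protein A is a trimer of RPA1, RPA2 and RPA3. Rpa1 had 20.6 FPKM at d12, 24.5 at d16, then 94.1 at d24 and 76.6 in adult testis. Rpa2 had 14.6, 12.3, 8.86 and 6.23 FPKM, and Rpa3 had 24.4, 16.8, 10.6 and 8.09 FPKM. The large subunit was thus highest at d24, and both smaller subunits were highest at d12. Rpa1 to Rpa2, a ratio chosen after the values were seen, was 1.41 at d12 (1.24 to 1.61), 1.98 at d16 (1.73 to 2.28), 10.6 at d24 (9.52 to 11.9) and 12.3 in adult testis (10.0 to 15.2).

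FIGNL1 removes DMC1 from DNA in a complex with FIRRM. Fignl1 had 23.2 FPKM at d12, 54.7 at d16, then 63.3 at d24 and 56.5 in adult testis, whereas Firrm had 25.1, 18.1, 11.03 and 7.09 FPKM. Fignl1 to Firrm, also chosen after the values were seen, was 0.926 at d12 (0.844 to 1.017), 3.03 at d16 (2.77 to 3.30), 5.74 at d24 (5.30 to 6.21) and 7.97 in adult testis (6.86 to 9.30). Of the planned pairs, Psmc3ip to Mnd1 moved most with stage, and Rad51c to Xrcc3 and Meiob to Spata22 moved less. The pairs added later differed in size and direction: beside the large rises of Rpa1 to Rpa2 and Fignl1 to Firrm, Swi5 to Sfr1 (a further heterodimer that acts in strand exchange) was 0.633, 0.990, 1.46 and 1.38, and Hsf2bp to Brme1 was 1.65, 2.25, 0.945 and 0.755.

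**Figure D3:**
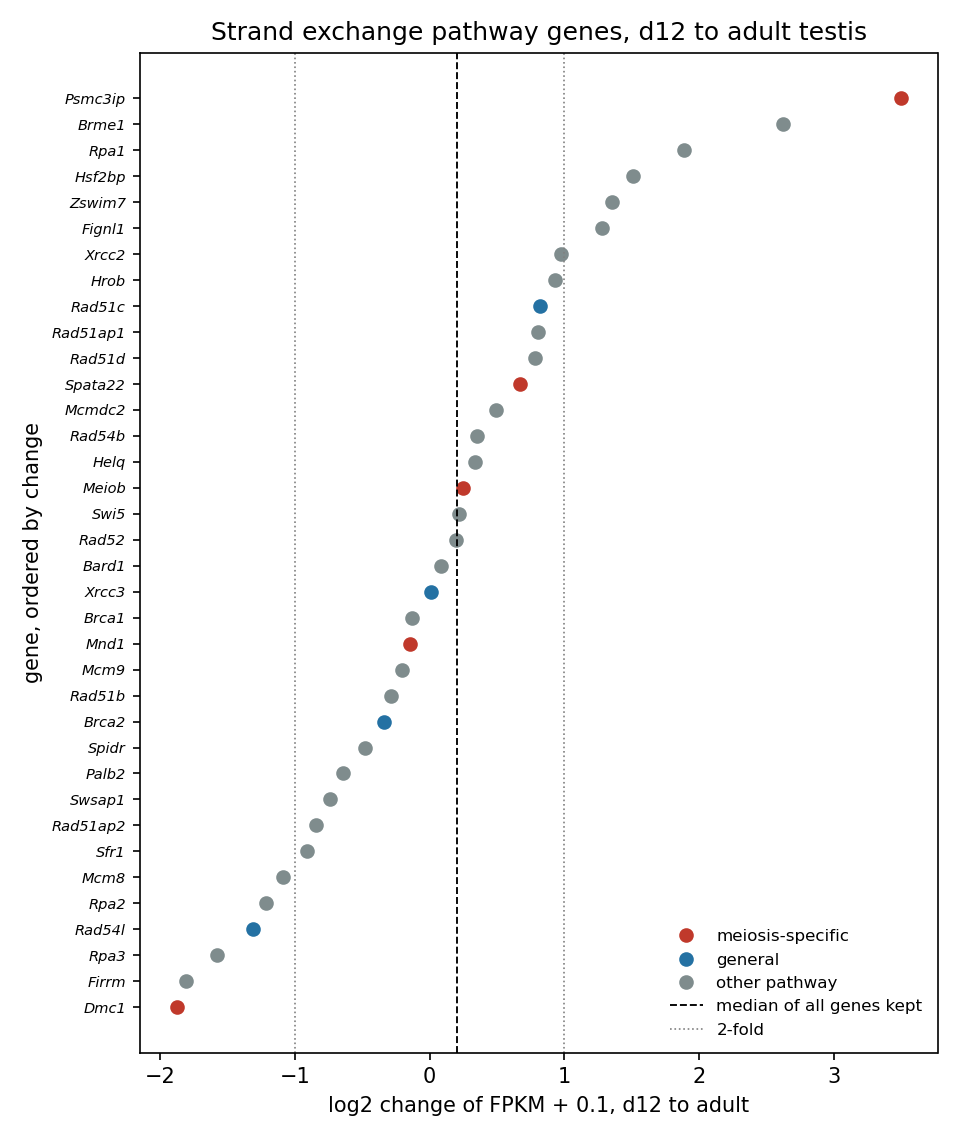
Change from d12 to adult testis, as log2 of FPKM + 0.1, for the 9 members and 27 further pathway genes ordered by size, with dotted lines at 2-fold and a dashed line at the median of all 13901 genes (0.20). Psmc3ip is at the top (3.50) and Dmc1 at the bottom (-1.88), and at equal FPKM sums the median of all genes is -0.996.

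Genes that mark cell types moved alongside these levels. Of the 6 early meiotic markers, Stra8 had 86.4 FPKM at d12, 49.2 at d16, then 19.0 at d24 and 12.3 in adult testis, and Ccnb3 had 14.7, 11.03, 4.89 and 3.40. Sycp1, with 288, 536, 309 and 296 FPKM, was highest at d16, as Mnd1, Meiob and Spata22 were. Markers of spermatogonia (6 genes, Uchl1 the most abundant) summed to 206, 122, 68.7 and 50.2 FPKM, and 5 of 6 fell at least 2-fold from d12 to adult testis. Of 6 genes of DNA replication in the S phase, 5 fell at least 2-fold from d12 to adult testis, and only Pcna did not. Their sums were 204, 202, 182 and 171 FPKM, with Pcna the most abundant in each library. No spermatogonial, S-phase or early meiotic marker was listed at 0. From d12 to d16, when Psmc3ip rose 3.81 times (3.39 to 4.29), the pachytene sum rose 15.9 times and the spermatid sums were still low. The part of these cell types in the results was not tested.

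Somatic markers were also read. Those of Sertoli cells (6 genes, Cldn11 the most abundant) summed to 176, 133, 81.0 and 60.6 FPKM, with Amh listed at 0 in adult testis. Markers of Leydig cells (6 genes, led by Hsd3b1 at d12, Cyp17a1 at d16 and Insl3 later) summed to 132, 82.4, 153 and 581 FPKM. Peritubular myoid markers (4 genes, led by Acta2) summed to 243, 201, 103 and 79.9 FPKM, and macrophage markers (4 genes, led by Lyz2) to 27.4, 35.3, 28.4 and 27.8 FPKM. Sertoli and myoid sums thus declined at each step, as the Dmc1 level did. Their part in the results was not tested either.

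The genes with the most similar profiles were sought among 9409 genes that averaged at least 5 FPKM, by Euclidean distance between log2 profiles centred on each gene's mean over the 4 libraries. Nearest to Dmc1 were Scml2 (distance 0.021), Klf6 (0.039) and Pip5k1c (0.047). Scml2 had 54.3 FPKM at d12, 39.0 at d16, then 20.4 at d24 and 14.5 in adult testis. Nearest to the mean profile of the meiosis-specific factors were Ncaph (0.065), Asz1 (0.083) and Gpat2 (0.14). Asz1 had 36.3, 66.4, 55.5 and 48.6 FPKM. Meiob (0.19) and Spata22 (0.23) were the members nearest to that mean, and Psmc3ip (2.36) and Dmc1 (1.80) the farthest among the 5. The general factors Rad51c (0.584) and Xrcc3 (0.654) were nearer to that mean than Mnd1 (0.6997), and Rad51c was farther from the mean of its own group (0.867). Nearest to the mean of the general factors were Ypel5 (0.033), Dbnl (0.037) and Hnrnpa0 (0.042).

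Positions were taken from the RefSeq annotation of GRCm38.p6. Dmc1 lies at chr15:79561497-79605159 on the minus strand, Psmc3ip at chr11:101092141-101095435 on the minus strand and Mnd1 at chr3:84087933-84155798 on the minus strand. Meiob lies at chr17:24804301-24839788 and Spata22 at chr11:73326560-73346592, both on the plus strand. Of the general factors, Brca2 lies at chr5:150522297-150570147 on the plus strand, and Rad51c at chr11:87376645-87404954, Xrcc3 at chr12:111803192-111813893 and Rad54l at chr4:116094261-116123700 on the minus strand. Psmc3ip is the most compact, with 8 exons in 3295 bp, and Mnd1 spreads the same number of exons over 67866 bp.

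Some exon sequence is shared with other genes. Psmc3ip shares 67 bp of exon with Mlx on the opposite strand, or 385 bp by the longer transcripts of GENCODE, and Mlx had 10.97, 10.9, 7.66 and 7.47 FPKM, below Psmc3ip in each library. Rad54l shares 155 bp with Lrrc41 (9.96, 10.04, 17.6 and 14.3 FPKM, above Rad54l in each library), Xrcc3 12 bp with Klc1 (22.3, 19.8, 10.8 and 10.3 FPKM, above Xrcc3 in each) and Brca2 386 bp with Gm42529, all on opposite strands, and the reads were mapped with their strand. Mnd1 has a near copy, Mnd1-ps, 97.0% identical over 824 bp. Mnd1-ps was listed at 1.30, 1.04, 0.459 and 0.323 FPKM, so the Mnd1 values are uncertain by the reads that the mapping may have placed on either gene. A transcript of Gm49340 matches Spata22 over 1025 bp at 100% identity, and GENCODE places it at chr11:73329741-73355913 on the same strand, where it overlaps Spata22. The Spata22 values therefore may include its reads and are uncertain to that extent.

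Promoter sequences of RefSeq (GRCm38.p6), from 250 bases before to 50 bases after each annotated start, were matched for 8 of 9 members, all but Meiob. Rad51c and Rad54l have 2 entries each. They were searched on both strands for CNCCTCAG (bound by STRA8 with MEIOSIN), GCGGGAA (bound by E2F factors), CACGTG (an E-box) and TGACGTCA (a cyclic AMP response element). The last 2 motifs are their own reverse complements. GCGGGAA was found in 3 of 8 members (Spata22, Brca2 and Rad51c) and in 5.29% of the 27025 genes with a promoter entry. TGACGTCA was found in 2 of 8 (Brca2 and Rad51c) and in 2.03% of genes. CNCCTCAG was found in 0 of 8 and in 9.12% of genes, and CACGTG in 0 of 8 and in 8.09%. Over all 32851 promoter entries of this length, GCGGGAA was in 4.6%, TGACGTCA in 1.79%, CNCCTCAG in 7.94% and CACGTG in 7.15%. GCGGGAA, TGACGTCA and CACGTG each hold a CpG (C followed by G). The entries of Spata22, Brca2 and Rad51c held 24 to 29 CpG, against a median of 7 and an upper quartile of 20 over all entries. Of the members without a match, Psmc3ip and Xrcc3 held 24, Dmc1 18, Rad54l 13 and Mnd1 12. The shares were not set against promoters of like composition. A match describes the letters only.

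The promoters with a match are printed, since they place the same letters in a meiosis-specific gene and in general factors. The motifs are in capitals. Starts are those of curated transcripts. For Spata22 and Brca2 they lie inside the gene spans given above, and Gm49340 begins at the same base as the curated Spata22 transcript. In Spata22 (chr11:73329491-73329790, plus strand) GCGGGAA begins 4 bases before the annotated start. In Brca2 (chr5:150522371-150522670, plus strand) GCGGGAA begins 168 bases and TGACGTCA 20 bases before it. Rad51c has an inner start (chr11:87404457-87404756, minus strand) with TGACGTCA beginning 45 bases before it, and an outer start (chr11:87404905-87405204, minus strand) with GCGGGAA beginning 5 bases before it.
Spata22: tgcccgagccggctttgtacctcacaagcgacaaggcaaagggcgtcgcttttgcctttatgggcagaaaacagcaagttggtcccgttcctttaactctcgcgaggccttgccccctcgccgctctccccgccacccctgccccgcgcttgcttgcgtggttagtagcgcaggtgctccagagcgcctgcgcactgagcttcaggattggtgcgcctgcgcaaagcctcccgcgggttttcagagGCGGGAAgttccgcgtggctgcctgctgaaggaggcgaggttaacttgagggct
Brca2: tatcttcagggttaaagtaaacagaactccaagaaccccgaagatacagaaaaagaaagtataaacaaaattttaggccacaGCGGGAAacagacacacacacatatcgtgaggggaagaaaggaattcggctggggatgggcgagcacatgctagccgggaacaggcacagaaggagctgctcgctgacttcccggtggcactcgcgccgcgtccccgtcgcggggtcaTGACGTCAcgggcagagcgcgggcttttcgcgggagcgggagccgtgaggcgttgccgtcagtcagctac
Rad51c inner start: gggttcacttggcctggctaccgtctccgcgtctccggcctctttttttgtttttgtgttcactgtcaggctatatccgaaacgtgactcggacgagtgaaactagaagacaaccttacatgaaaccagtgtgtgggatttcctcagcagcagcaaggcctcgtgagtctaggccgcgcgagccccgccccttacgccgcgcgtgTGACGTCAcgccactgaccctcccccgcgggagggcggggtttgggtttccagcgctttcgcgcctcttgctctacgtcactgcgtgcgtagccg
Rad51c outer start: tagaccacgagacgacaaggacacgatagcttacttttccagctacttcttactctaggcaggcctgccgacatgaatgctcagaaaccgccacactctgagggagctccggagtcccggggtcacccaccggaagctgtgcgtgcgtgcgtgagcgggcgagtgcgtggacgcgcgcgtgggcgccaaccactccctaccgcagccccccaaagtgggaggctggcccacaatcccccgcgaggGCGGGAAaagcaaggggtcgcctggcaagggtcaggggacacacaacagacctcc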

How the data were processed

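The authors deposited FPKM values of 23983 genes for 4 RNA libraries. Per their methods, reads were aligned by TopHat2 2.1.0 (Bowtie 1.1.2) against GRCm38/mm10 with RefSeq genes, 1 alignment being kept per pair. Cuffdiff (Cufflinks 2.2.1) then gave FPKM values, with its options for multi-mapped reads and sequence bias switched on and effective length correction off. The scaling between libraries is not given in the sources used here. The H3K27Ac ChIP-seq samples were not analysed here.

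Members were matched by symbol. A gene planned for the pathway list, the ratios and the longer lists is not reported here. The members and lists were chosen with earlier results of these data known. Named genes were the members, the pathway list, the markers and the 3 nearest profiles per target. Log2 changes used a pseudocount of 0.1 FPKM, and shares of all genes a mean of 1 FPKM or more. A fragment on a 1 kb transcript was worth 0.0799 FPKM in the d12, 0.0800 in the d16, 0.0455 in the d24 and 0.112 in the adult library, and 91.6% to 92.4% of values of up to 20 fragments lay within 0.05 of a whole number. Lengths were means over curated RefSeq transcripts. Intervals of a gene were given only where these transcripts were of similar length. The library totals used every gene with a curated transcript. Intervals are exact (Poisson for levels, Clopper-Pearson for ratios). Near copies are transcripts with 95% identity or more along 80% or more of the query (blastn 2.17.0, e-value 1e-10). Alternatives were 2 scalings, pseudocounts of 1 and 0.01 FPKM, 1.5-fold and 3-fold limits, filters of 5 FPKM or none, means for medians, longer lists and the longest transcript. Calculations (python 3.11.15, numpy 2.4.6, pandas 2.3.3, scipy 1.17.1, matplotlib 3.10.9) were tested on simulated data.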

Additional observations from a re-analysis of the deposited data

How the results depend on the processing

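Of 112 recalculated group medians, differences and member counts, 89 stayed within the counting interval or within 1.5 times the count, and 23 did not. All differences between group medians were among the 89. The 2 scalings could hardly move these differences, since both groups shift together within a library, so those recalculations are no check of them. At equal FPKM sums the meiosis-specific median became -1.06 from d16 to d24, -0.72 from d24 to adult testis and -0.96 from d12 to adult testis, and the general median -0.44 from d16 to d24 and -1.35 from d12 to adult testis. By upper quartile the meiosis-specific median became -0.87 from d16 to d24 and -0.42 from d12 to adult testis, and the general median -0.82 from d12 to adult testis. These shifts follow from the scaling itself, which moves all genes of a library together. Members past 2-fold from d16 to d24 became 0 higher and 4 lower at equal sums, beside 19.4% and 30.2% of all genes. By upper quartile they became 0 higher and 2 lower, beside 21.4% and 22.3%. At equal sums 1 member was lower from d24 to adult testis and 5 from d12 to adult testis, beside 10.0% and 49.9% of all genes. With a 1.5-fold limit, 5 members were higher and 1 lower from d12 to d16 (20.3% and 13.4% of all genes), 2 lower from d16 to d24 (22.4%), 1 lower from d24 to adult testis (8.72%) and 3 higher from d12 to adult testis (42.5%). With a 3-fold limit, 1 was higher from d12 to d16 (8.11%), 0 higher and 0 lower from d16 to d24 (19.5% and 1.30%), and 1 lower from d12 to adult testis (11.9%). Pseudocounts of 1 and 0.01 FPKM and means in place of medians moved none of these results. With longer gene lists the difference between group medians turned from 0.16 to -0.08 from d24 to adult testis and shrank from -0.61 to -0.27 from d16 to d24. It grew from 0.42 to 0.71 from d12 to adult testis. These values lie inside the counting interval, but that interval does not measure the choice of genes. The size of the difference, and its sign from d24 to adult testis, thus depended on the genes listed. The share of all genes at least 2-fold lower was 1.87% with a filter of 5 FPKM and 6.88% with none from d12 to d16, and 0.801% and 4.52% from d24 to adult testis. Of 172 recalculations for genes, shares and ratios, 52 moved, and no change past 2-fold turned its direction. The partner ratios among them could not move, since the longest transcript changes only their intervals. No paired analysis was possible because each stage has 1 library. Among the members, counting error limits Xrcc3 most, with 44 fragments in adult testis.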
